A study of Arabidopsis thaliana with 12 samples.

Results

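The JAZ repressors JAZ1 to JAZ10 were followed across the transcriptomes of O3-treated Arabidopsis rosettes. The 10 genes were taken by their locus identifiers from 34212 loci in the table, and every one had reads in each library. Cvi-0 (Cvi) and Shahdara (Sha) are natural accessions that the study treats as O3-sensitive. The 4 groups were Cvi in O3 (350 nL L-1 for 2 h), Cvi in clean air (CA), Sha in the same O3 treatment and Sha in CA. Each group had 3 replicate libraries of whole rosettes from wild-type plants aged 3 weeks, and each library was made from 4 pooled rosettes.

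JAZ proteins are the switch of jasmonate signalling. Without the hormone they bind MYC transcription factors and, through the adaptor NINJA or a motif of their own, recruit the corepressor TOPLESS, so that jasmonate genes stay silent. When the active hormone jasmonoyl-isoleucine (JA-Ile) accumulates, it joins a JAZ protein to the F-box receptor COI1, the JAZ protein is degraded and MYC2 and its relatives become active. Most JAZ genes are themselves targets of MYC2 and are rapidly induced by jasmonate or wounding, which returns the pathway to the repressed state. Transcript levels do not show how much JAZ protein was present.

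JAZ genes carry the G-box CACGTG, the element bound by MYC2, to different degrees near their start sites. For 9 of the 10 genes, JAZ2 to JAZ10, the 250 bases upstream of the annotated transcription start were read from TAIR10.1 (RefSeq annotation, Col-0 sequence), and both strands were searched for the G-box CACGTG, its variant AACGTG, the GCC-box GCCGCC and the W-box core TTGAC. The G-box was found in 4 of these 9 genes, against 6.81% of 25124 promoters of the same length. The variant AACGTG was found in 3 of the genes, against 7.75% of promoters, and TTGAC in 4, against 45.1%. None of the 9 windows held GCCGCC, which occurred in 1.87% of promoters. The windows printed here are those of the 4 genes with a G-box, together with JAZ5, which had the largest fitted response of the family to O3 in Cvi and no G-box in the window. The coordinates are chr1:28150447-28150696 (minus strand) for JAZ2, chr3:6119457-6119706 (plus strand) for JAZ3, chr2:14572780-14573029 (plus strand) for JAZ7 and chr1:10596102-10596351 (plus strand) for JAZ8. That of JAZ5 is chr1:5957512-5957761 (minus strand). Each window is written 5′ to 3′ on the strand of the gene and ends at the base before the start. Capitals mark CACGTG and AACGTG in either orientation, so that the variant on the opposite strand reads CACGTT.
JAZ2: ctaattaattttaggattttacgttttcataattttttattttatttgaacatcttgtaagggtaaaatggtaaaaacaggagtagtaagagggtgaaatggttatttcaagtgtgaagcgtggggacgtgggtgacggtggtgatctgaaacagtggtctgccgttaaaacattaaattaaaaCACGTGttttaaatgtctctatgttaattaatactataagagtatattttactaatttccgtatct
JAZ3: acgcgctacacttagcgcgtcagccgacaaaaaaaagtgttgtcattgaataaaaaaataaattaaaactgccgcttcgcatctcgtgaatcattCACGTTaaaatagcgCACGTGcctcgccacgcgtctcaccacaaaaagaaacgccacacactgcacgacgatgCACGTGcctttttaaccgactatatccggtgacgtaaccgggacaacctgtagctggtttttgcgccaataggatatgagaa
JAZ7: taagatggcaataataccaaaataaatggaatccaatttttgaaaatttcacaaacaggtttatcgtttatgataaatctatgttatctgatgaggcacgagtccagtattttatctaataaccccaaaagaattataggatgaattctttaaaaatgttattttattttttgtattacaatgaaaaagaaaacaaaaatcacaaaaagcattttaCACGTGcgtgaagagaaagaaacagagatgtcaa
JAZ8: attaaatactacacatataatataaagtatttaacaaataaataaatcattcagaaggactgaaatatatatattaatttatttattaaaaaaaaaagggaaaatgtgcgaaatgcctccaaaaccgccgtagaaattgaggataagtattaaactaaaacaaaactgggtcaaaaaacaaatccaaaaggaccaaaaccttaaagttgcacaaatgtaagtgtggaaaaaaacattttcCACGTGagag
JAZ5: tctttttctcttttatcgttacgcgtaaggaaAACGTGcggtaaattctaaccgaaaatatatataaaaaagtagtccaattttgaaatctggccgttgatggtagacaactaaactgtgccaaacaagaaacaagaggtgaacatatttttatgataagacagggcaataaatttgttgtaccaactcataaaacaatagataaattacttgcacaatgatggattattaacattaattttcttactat
Counted back from the start, the G-box of JAZ2 begins at -66, those of JAZ3 at -140 and -82, that of JAZ7 at -34 and that of JAZ8 at -10. The variant begins at -155 in JAZ3, at -218 in JAZ5 and at -127 in JAZ6. The windows of JAZ4, JAZ9 and JAZ10 held neither form. A match is a description of these letters, in the Col-0 genome, and binding was not measured.

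The libraries held 10794686 to 33571953 estimated counts each, and the Sha libraries had 10794686 to 27895667. Transcript levels are given as CPM, that is, counts scaled to a common library total after TMM normalisation. A change was called with edgeR against a minimum fold change of 1.2, at a Benjamini-Hochberg adjusted p of at most 0.05 over 28549 genes tested. The 5 rosette leaf markers were all abundant, with sums of 16441 to 20278 CPM in Cvi in O3 and 45820 to 50212 CPM in Cvi in CA. In Sha these sums were 7579 to 16969 CPM in O3 and 33453 to 45015 CPM in CA. Each of the 5 was called lower in O3, in Cvi and in Sha, and their part in the JAZ values was not tested. Of 3 root markers only PYK10 reached 1 CPM, with CASP1 at 0 in Cvi, and the root sums were 9.77 to 98.9 CPM. The 3 flower markers summed to 0.297 to 0.557 CPM in Cvi in O3 and 0.125 to 0.541 CPM in Cvi in CA. In Sha they summed to 2.72 to 5.01 CPM in O3 and 4.08 to 8.58 CPM in CA. All 3 were called lower in Cvi than in Sha in O3, and 2 in CA, and what this means for the JAZ values was not tested. The 3 seed markers summed to at most 0.218 CPM, with all 3 at 0 in Sha in O3. Because whole rosettes were sampled, fewer cells of a type and less RNA per cell cannot be told apart. Transcripts of Col-0 had served as the reference for Cvi and Sha alike, so sequence and expression differences between accessions at a single gene cannot be told apart.

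The first question was how strongly O3 changed each JAZ gene. In Cvi, 8 of the 10 genes were called higher in O3 and 0 lower, against 24.3% of all genes called higher and 23.2% called lower. In Sha, 6 of the 10 were called higher and 0 lower, against 17.9% and 16.6% of all genes. Their median response (log2 fold change) was 3.57 in Cvi and 1.56 in Sha, while that of all genes tested was 0.0 in each accession. The genes called in Cvi were JAZ1, JAZ2, JAZ5, JAZ6, JAZ7, JAZ8, JAZ9 and JAZ10, and those called in Sha were JAZ1, JAZ5, JAZ6, JAZ7, JAZ8 and JAZ10. JAZ3 and JAZ4 were called in neither accession. The edgeR quasi-likelihood test and DESeq2 each called 8 genes in Cvi and 6 in Sha. When edgeR tested against a minimum log2 fold change of 1.2, a stricter limit, JAZ9 was lost in Cvi (adjusted p = 0.686). Over all 28549 genes, this limit called 3773 higher in O3 in Cvi and 2075 in Sha. In Sha 3 of the 10 JAZ genes were then called, and JAZ6 (adjusted p = 0.144), JAZ7 (0.0749) and JAZ8 (0.582) were lost. The fitted Sha values of these lost genes still lie above 1.2, because the test asks more than a cutoff at that value.

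**Figure D1:**
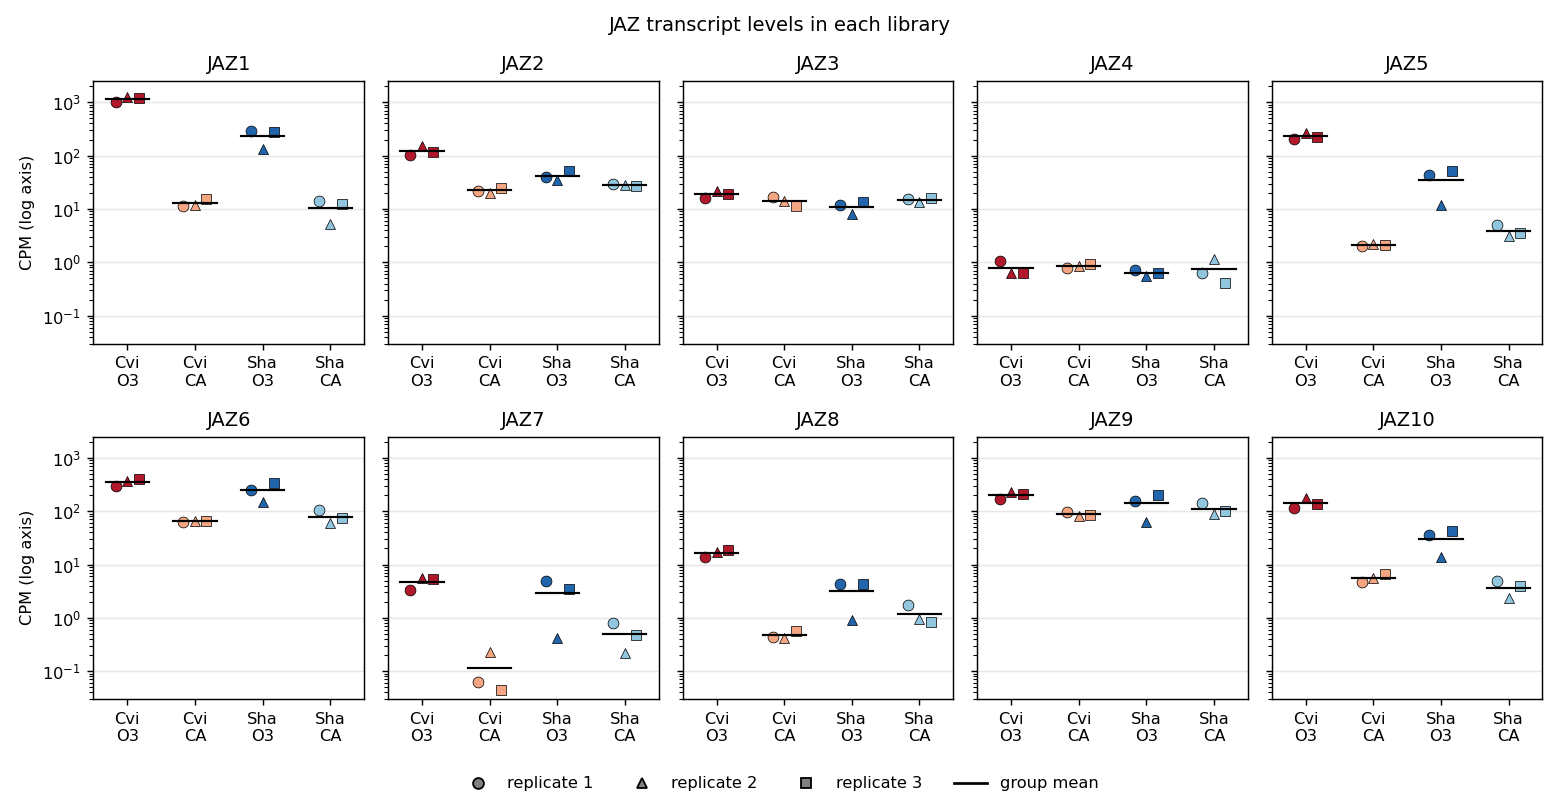
Transcript level of each JAZ gene in CPM (log axis) in the 12 libraries, by accession and treatment. Symbols mark replicates 1 to 3 and bars mark group means. JAZ1 lies between 1002 and 1246 CPM in Cvi in O3, above every other library, and replicate 2 (triangles) is the lowest Sha library in O3 in all 10 panels.

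JAZ1, JAZ5 and JAZ10 responded in both accessions with the treatment groups fully apart. JAZ1 (AT1G19180, chromosome 1), an early jasmonate response gene whose product can also bind the ethylene regulator EIN3, had 1002, 1246 and 1200.1 CPM in the Cvi O3 libraries, against 11.5, 11.6 and 15.7 CPM in Cvi in CA. In Sha, JAZ1 had 292, 131 and 282 CPM in O3, against 14.1, 5.31 and 12.5 CPM in CA. No O3 library overlapped a CA library. Of all 28549 genes tested, 8105 in Cvi and 6158 in Sha had every O3 library above every CA library. The change was 88.9-fold in Cvi (log2 fold change 6.47, SE 0.346, edgeR adjusted p = 1.35e-46) and 22.1-fold in Sha (4.47, SE 0.349, adjusted p = 5.46e-26).

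JAZ5 (AT1G17380, chromosome 1, 5955155 to 5957511) belongs to the JAZ proteins with an EAR motif, which can recruit TOPLESS directly. It had 207, 262 and 219 CPM in Cvi in O3, against 2.01, 2.17 and 2.13 CPM in Cvi in CA. Sha had 43.9, 11.8 and 50.4 CPM in O3, against 5.08, 3.05 and 3.57 CPM in CA. The response of Cvi was 109-fold (6.76, SE 0.398, adjusted p = 1.77e-39), the largest fitted fold of the family, and that of Sha 9.12-fold (3.19, SE 0.398, adjusted p = 7.61e-12). The confidence intervals of JAZ5 and JAZ1 in Cvi overlapped (95% interval of the log2 fold change 5.98 to 7.54 for JAZ5 and 5.80 to 7.15 for JAZ1).

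JAZ10 (AT5G13220, chromosome 5, 4218786 to 4221077) encodes a repressor known for splice forms that resist degradation. Those forms could not be separated here, because the table gives a single value per locus. JAZ10 had 113, 180 and 135 CPM in Cvi in O3, against 4.64, 5.49 and 6.53 CPM in Cvi in CA, and 35.4, 13.6 and 43.1 CPM in Sha in O3, against 4.90, 2.33 and 3.88 CPM in Sha in CA. The folds were 25.7 in Cvi (4.68, SE 0.360, adjusted p = 8.41e-27) and 8.32 in Sha (3.06, SE 0.372, adjusted p = 1.59e-12). An RNA gene, AT5G02045, overlaps JAZ10 on the opposite strand in the annotation. Use of strand in counting is not given in the sources used here, so the value of JAZ10 is uncertain.

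JAZ7 and JAZ8 are a pair of short, atypical members that diverge from the sequence COI1 recognises, and JAZ8 is known to resist jasmonate-induced degradation. Their windows shown above hold a G-box close to the start. Both were nearly absent in CA. JAZ8 (AT1G30135, chromosome 1, 10596352 to 10597341) had 14.0, 16.9 and 18.7 CPM in Cvi in O3, against 0.439, 0.425 and 0.566 CPM in Cvi in CA. In Sha it had 4.25, 0.905 and 4.30 CPM in O3, against 1.72, 0.945 and 0.824 CPM in CA, and the Sha groups overlapped through replicate 2 of O3. JAZ8 rose 34.4-fold in Cvi (5.11, SE 0.472, adjusted p = 2.87e-21) and 2.80-fold in Sha (1.49, SE 0.466, adjusted p = 0.00893).

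JAZ7 (AT2G34600, chromosome 2, 14573030 to 14573952) had 3.33, 5.55 and 5.43 CPM in Cvi in O3, against 0.0627, 0.232 and 0.0436 CPM in Cvi in CA, where the libraries held only 1 to 6 counts. In Sha it had 4.83, 0.422 and 3.43 CPM in O3, against 0.816, 0.218 and 0.481 CPM in CA. Cvi libraries did not overlap between treatments and Sha libraries did. The fitted log2 fold change was 5.34 in Cvi (95% interval 3.76 to 6.91, adjusted p = 1.39e-09), or 6.31 without Cvi CA replicate 2, and 2.53 in Sha (1.13 to 3.93, adjusted p = 0.00281). Of the genes called in both accessions, JAZ7 and JAZ8 were those whose Sha groups overlapped.

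JAZ6, JAZ9 and JAZ2 had the highest levels per kb of the family in CA. In Cvi their folds were smaller than those of the other called members, and in Sha only JAZ6 was called. JAZ6 (AT1G72450, chromosome 1, 27273968 to 27276562), the sister gene of JAZ5 and linked to clock-dependent defence, had 300.2, 373 and 396 CPM in Cvi in O3, against 61.9, 66.0 and 66.1 CPM in Cvi in CA. Sha had 253, 148 and 339 CPM in O3, against 104, 60.0 and 73.7 CPM in CA. JAZ6 rose 5.51-fold in Cvi (2.46, SE 0.282, adjusted p = 3.97e-14) and 3.11-fold in Sha (1.64, SE 0.282, adjusted p = 1.04e-06), with no overlap of treatments in either.

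JAZ2 (AT1G74950, chromosome 1, 28148574 to 28150446) is the sister gene of JAZ1 and is known for its role in guard cells, where it controls stomatal reopening. It had 101, 155 and 118 CPM in Cvi in O3, against 22.2, 20.3 and 25.1 CPM in Cvi in CA. In Sha it had 39.4, 34.4 and 50.5 CPM in O3, against 29.7, 28.3 and 26.7 CPM in CA. All O3 libraries lay above all CA libraries in both accessions, yet only the Cvi change was called (5.53-fold, 2.47, SE 0.197, adjusted p = 2.57e-27). The Sha change of 0.56 (SE 0.199) had an adjusted p of 0.0602. Same-numbered Sha libraries deviated together, and with a replicate block for each accession the change of JAZ2 in Sha was called (0.54, adjusted p = 0.0435). It was also called without Sha O3 replicate 1 (0.67, adjusted p = 0.0275), without Sha O3 replicate 2 (0.64, adjusted p = 0.0251) and without Cvi O3 replicate 2 (0.56, adjusted p = 0.0442). Further edgeR calls came with DESeq2 size factors (0.58, adjusted p = 0.0473), with filterByExpr (0.64, 0.0168) and without a minimum fold change (0.56, 0.0151).

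JAZ9 (AT1G70700, chromosome 1, 26654529 to 26657350), a partner of the gibberellin repressor RGA, had 167, 227 and 206 CPM in Cvi in O3, against 97.3, 82.3 and 85.2 CPM in Cvi in CA. The Sha libraries had 157, 64.0 and 201 CPM in O3, against 145, 88.5 and 99.7 CPM in CA. The O3 libraries of Sha spanned the CA values on both sides. JAZ9 rose 2.27-fold in Cvi (1.18, SE 0.331, adjusted p = 0.00316) and had a log2 change of 0.34 (SE 0.332, adjusted p = 0.524) in Sha. The Sha value depended on single libraries, and with 1 library left out it ranged from 0.073 to 0.65. The upper value, without Sha O3 replicate 2, was called (edgeR adjusted p = 0.0378).

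JAZ3 and JAZ4, a further pair of sister genes, showed no called response. JAZ3 (AT3G17860, chromosome 3, 6119707 to 6123044), the gene of the jasmonate-insensitive mutant jai3, had 16.3, 21.3 and 18.9 CPM in Cvi in O3, against 16.5, 14.0 and 11.2 CPM in Cvi in CA. In Sha it had 11.7, 8.20 and 13.5 CPM in O3, against 15.1, 13.3 and 16.0 CPM in CA. The log2 changes were 0.43 in Cvi (95% interval 0.02 to 0.84, adjusted p = 0.150) and -0.41 in Sha (-0.83 to 0.01, adjusted p = 0.235). JAZ3 holds the most G-box matches among the 9 windows. JAZ4 (AT1G48500, chromosome 1, 17931390 to 17934662) was scarce in all libraries, with 0.412 to 1.16 CPM and 7 to 25 counts each. Its log2 change was -0.15 in Cvi (95% interval -0.88 to 0.58) and -0.12 in Sha (-0.97 to 0.73), so changes within these intervals were not excluded. Without Sha CA replicate 2 the Sha value of JAZ4 was 0.39.

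**Figure D2:**
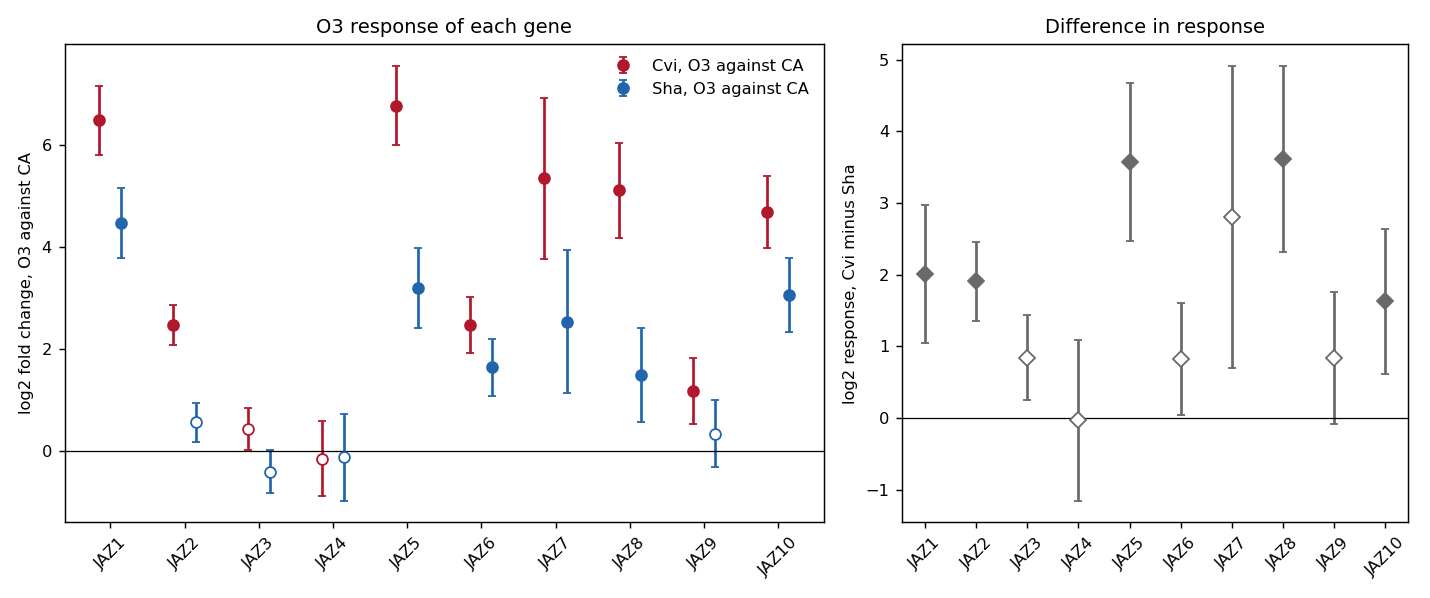
Left, log2 fold change of each JAZ gene between O3 and CA in Cvi (red) and Sha (blue). Right, difference between the responses (Cvi minus Sha). Bars are 95% confidence intervals of the fitted values from 3 libraries per group and filled symbols mark called genes. The largest Cvi values are 6.76 for JAZ5 and 6.47 for JAZ1, and the 5 called differences lie between 1.63 and 3.62.

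The next question was whether the size of the response differed between Cvi and Sha, which the interaction of accession and treatment tests. A positive difference (log2 response of Cvi minus that of Sha) was called for 5 of the 10 genes and a negative one for 0. Of all genes, 6.33% had a positive and 2.6% a negative difference called. A positive difference can be a larger rise or a smaller fall in Cvi, and the 5 JAZ genes had larger rises. The differences were 3.62 for JAZ8 (SE 0.663, edgeR adjusted p = 7.95e-06), 3.58 for JAZ5 (SE 0.563, adjusted p = 1.47e-07), 2.01 for JAZ1 (SE 0.491, adjusted p = 0.00240), 1.91 for JAZ2 (SE 0.280, adjusted p = 3.54e-08) and 1.63 for JAZ10 (SE 0.518, adjusted p = 0.0335). On the linear scale these correspond to responses 12.3, 11.9, 4.02, 3.75 and 3.09 times as large in Cvi. JAZ5 and JAZ8, members of different sister pairs, had the largest of these values.

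With a minimum log2 fold change of 1.2, 2 of these 5 calls remained, JAZ5 and JAZ8, and those for JAZ1 (adjusted p = 0.360), JAZ2 (0.0621) and JAZ10 (0.967) were lost. Over all 28549 genes, 464 positive and 66 negative differences were then called. The call for JAZ10 was also lost with the quasi-likelihood test (1.62, adjusted p = 0.0768) and with DESeq2 (1.69, adjusted p = 0.0767), and when Cvi O3 replicate 2 (adjusted p = 0.124), Cvi O3 replicate 3 (0.0636), Cvi CA replicate 1 (0.108), Cvi CA replicate 2 (0.0824), Sha CA replicate 1 (0.121) or Sha CA replicate 3 (0.0712) was left out. Among the genes without a call, the difference was 2.81 for JAZ7 (95% interval 0.70 to 4.92, adjusted p = 0.0789), 0.84 for JAZ3 (0.25 to 1.43, adjusted p = 0.0903), 0.82 for JAZ6 (0.04 to 1.61, adjusted p = 0.274) and 0.84 for JAZ9 (-0.08 to 1.76, adjusted p = 0.371). JAZ4 had -0.03 (-1.16 to 1.09, adjusted p = 1.0). With a replicate block for each accession, 8 genes were called for the difference, with JAZ3 (adjusted p = 0.0165), JAZ6 (0.0299) and JAZ7 (0.000201) added. Over all 28549 genes, this block also raised the calls, to 2418 positive and 1356 negative differences, from 1806 and 742. Same-numbered libraries deviated together in Sha but not in Cvi. Leaving out Sha O3 replicate 3 added JAZ3 (0.98, adjusted p = 0.0335) and JAZ6 (1.09, adjusted p = 0.0399). In edgeR, JAZ3 was also called with DESeq2 size factors (0.91, adjusted p = 0.0454), with filterByExpr (0.86, 0.0486) and without a minimum fold change (0.84, 0.0463). JAZ7 was called without Cvi CA replicate 2 (3.78, adjusted p = 0.0298), Sha O3 replicate 1 (3.36, 0.0260), Sha O3 replicate 2 (2.29, 0.0153) or Sha CA replicate 2 (3.15, 0.0407).

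Levels in the 2 accessions were next compared within each treatment. In O3, 6 of the 10 genes had a higher level called in Cvi than in Sha and 0 a lower one, against 18.5% and 13.9% of all genes. These were JAZ1 (log2 difference 2.29, SE 0.343, edgeR adjusted p = 2.42e-08), JAZ2 (1.59), JAZ3 (0.75), JAZ5 (2.69), JAZ8 (2.38) and JAZ10 (2.21). In each, the 3 Cvi libraries lay above the 3 Sha libraries, as they did for 7386 of the 28549 genes tested. The calls for JAZ2 (adjusted p = 0.0620) and JAZ3 (adjusted p = 1.0) were lost with a minimum log2 fold change of 1.2. The call for JAZ3 (adjusted p = 0.0104) was also lost without Cvi O3 replicate 2 (0.66, adjusted p = 0.0551) and without Sha O3 replicate 2 (0.57, adjusted p = 0.0572). JAZ6, JAZ7, JAZ9 and JAZ4 overlapped between the accessions in O3, with log2 differences of 0.53, 0.72, 0.51 and 0.27. JAZ6 was called there without Sha O3 replicate 3 (0.75, adjusted p = 0.0333). JAZ7, with a mean of 4.77 ± 1.25 CPM in Cvi and 2.90 ± 2.25 CPM in Sha (SD, n = 3), thus reached levels in O3 that could not be told apart at this replicate spread.

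In CA, edgeR called 0 of the 10 genes higher and 0 lower in Cvi relative to Sha, against 8.84% and 9.28% of all genes. The quasi-likelihood test and DESeq2 also called 0, and 3 genes had an unadjusted p under 0.05, a count not taken over all genes. These 3 had negative values, -2.09 for JAZ7 (adjusted p = 0.0662), -1.24 for JAZ8 (adjusted p = 0.0924) and -0.88 for JAZ5 (adjusted p = 0.169). For JAZ2, JAZ5 and JAZ8 all Cvi CA libraries lay below all Sha CA libraries, and JAZ2 had a log2 difference of -0.32 (adjusted p = 0.422). How many of all genes were separated in this direction was not counted. In the opposite direction, 5553 of the 28549 genes tested had all Cvi CA libraries above all Sha CA libraries. Mean levels in CA were 2.1 ± 0.0838 CPM in Cvi and 3.90 ± 1.05 CPM in Sha for JAZ5, and 0.477 ± 0.0778 CPM in Cvi and 1.16 ± 0.488 CPM in Sha for JAZ8 (SD, n = 3). The 3 genes were called lower in Cvi without Sha O3 replicate 2, with adjusted p = 0.00438 for JAZ7, 0.0122 for JAZ8 and 0.00512 for JAZ5. JAZ7 alone was called without Cvi CA replicate 2 (-3.06, adjusted p = 0.0233), without Sha O3 replicate 1 (-2.12, adjusted p = 0.0453) and without Sha CA replicate 2 (-2.43, adjusted p = 0.0361). The accession comparisons and the O3 responses share libraries, so they are not independent of each other.

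The make-up of the family was different in O3 and in CA. Levels were divided by the length of the longest annotated transcript to compare genes. Summed over the 10 genes, the level was 1361 ± 174 CPM per kb in Cvi in O3 and 122 ± 4.28 CPM per kb in Cvi in CA, and 444 ± 176 CPM per kb in Sha in O3 and 147 ± 35.0 CPM per kb in Sha in CA (SD, n = 3). JAZ1 made up 54.3 ± 1.06% of this sum in Cvi in O3 and 6.81 ± 1.16% in Cvi in CA. In Sha the share of JAZ1 was 34.2 ± 3.12% in O3 and 4.52 ± 1.5% in CA. JAZ9 had the largest share in CA, 40.9 ± 2.83% in Cvi and 42.4 ± 1.52% in Sha, and in O3 it held 8.27 ± 0.205% in Cvi and 17.2 ± 2.41% in Sha. JAZ6 held 14.7 ± 0.975% in Cvi in O3, 29.8 ± 1.90% in Cvi in CA, 31.4 ± 2.83% in Sha in O3 and 30.001 ± 1.51% in Sha in CA. A share falls when other members rise, and the CPM of JAZ9 itself rose in Cvi.

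**Figure D3:**
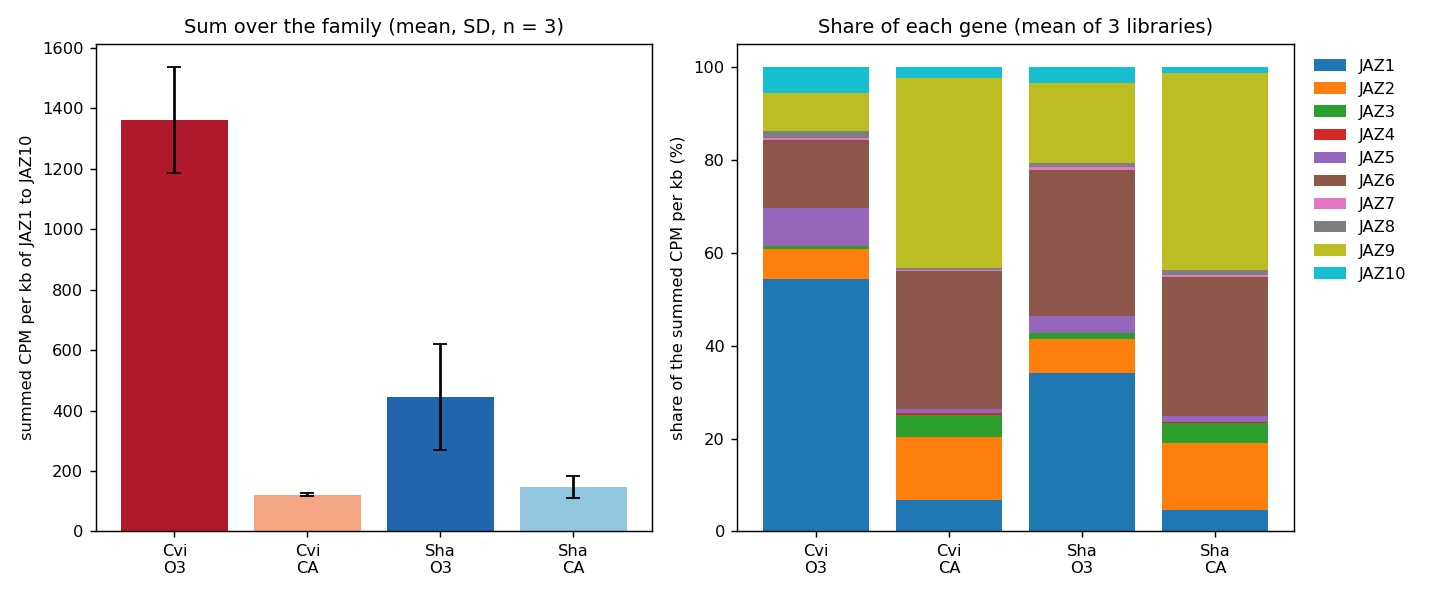
Left, summed level of JAZ1 to JAZ10 in CPM per kb of transcript (mean and SD of 3 libraries). Right, share of each gene in that sum in percent (mean of 3 libraries). JAZ1 holds 54.3% in Cvi in O3 and 34.2% in Sha in O3, and JAZ9 holds 40.9% in Cvi in CA and 42.4% in Sha in CA.

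The order of levels per kb in Cvi in O3 was JAZ1 (738 ± 83.1 CPM per kb), JAZ6 (199 ± 28.0), JAZ9 (113 ± 17), JAZ5 (111 ± 14.0), JAZ2 (90.8 ± 19.9), JAZ10 (75.2 ± 17.8), JAZ8 (20.5 ± 2.92), JAZ3 (7.86 ± 1.03), JAZ7 (5.79 ± 1.52) and JAZ4 (0.499 ± 0.152). Neighbours from JAZ9 to JAZ10 in this order overlapped between libraries, and the others did not. In Cvi in CA the order was JAZ9 (49.8 ± 4.50 CPM per kb), JAZ6 (36.2 ± 1.34), JAZ2 (16.4 ± 1.76), JAZ1 (8.30 ± 1.53), JAZ3 (5.81 ± 1.11), JAZ10 (2.93 ± 0.50), JAZ5 (1.02 ± 0.0405), JAZ8 (0.592 ± 0.0965), JAZ4 (0.550 ± 0.0423) and JAZ7 (0.137 ± 0.126). Only JAZ8 and JAZ4 overlapped as neighbours there.

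In Sha in O3, JAZ1 (151 ± 57.8 CPM per kb), JAZ6 (138 ± 53.6) and JAZ9 (79.3 ± 39.4) came first. They were followed by JAZ2 (30.2 ± 6.01), JAZ5 (17.1 ± 9.98), JAZ10 (16.2 ± 8.05), JAZ3 (4.64 ± 1.12), JAZ8 (3.91 ± 2.42), JAZ7 (3.52 ± 2.74) and JAZ4 (0.411 ± 0.0578). Neighbours overlapped from JAZ1 to JAZ2, between JAZ5 and JAZ10, and from JAZ3 to JAZ7. In Sha in CA the order was JAZ9 (62.7 ± 16.9), JAZ6 (44.4 ± 12.8), JAZ2 (20.6 ± 1.12), JAZ1 (6.81 ± 2.99), JAZ3 (6.17 ± 0.573), JAZ10 (1.95 ± 0.682), JAZ5 (1.88 ± 0.508), JAZ8 (1.44 ± 0.605), JAZ7 (0.614 ± 0.364) and JAZ4 (0.477 ± 0.25). Neighbours overlapped there for JAZ9 with JAZ6, for JAZ1 with JAZ3, from JAZ10 to JAZ8 and for JAZ7 with JAZ4. The first 8 places in CA were the same in both accessions.

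Replicate 2 of Sha was low across the JAZ genes. In O3 it was the lowest of the 3 Sha libraries for 10 of the 10 genes, and in CA for 7 of the 10. Over the 19107 genes that averaged 1 CPM or more, it was the lowest library for 47.6% in O3 and 41.4% in CA. The root marker PYK10 was also low in these libraries, with 9.71 CPM in Sha O3 replicate 2, against 56.8 and 49.4 CPM in replicates 1 and 3, and 22.2 CPM in Sha CA replicate 2, against 44.4 and 52.2 CPM. The part of this in the JAZ values was not tested. A low library was not particular to Sha: replicate 1 of Cvi in O3 was the lowest of its group for 9 of the 10 genes. It was the lowest for 33.0% of the 19107 genes. Without replicate 2 of Sha in both treatments, the log2 responses of Sha were 4.52 for JAZ1, 3.58 for JAZ5, 3.26 for JAZ10, 1.99 for JAZ8 and 2.83 for JAZ7. In that fit 8 of the 10 genes were called higher in Sha, JAZ2 and JAZ9 included, against 5607 of all 28384 genes. The differences between accessions were then 2.01 for JAZ1, 3.24 for JAZ5, 1.48 for JAZ10, 3.18 for JAZ8 and 1.77 for JAZ2, and JAZ7 was called as well (2.57, adjusted p = 0.00329).

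Ratios of same-numbered libraries show how replicate 2 of Sha entered the response. JAZ1 had O3 over CA ratios of 20.8, 24.7 and 22.6 in Sha replicates 1, 2 and 3, so replicate 2 was low in both treatments and its ratio was the highest. For JAZ5 these ratios were 8.65, 3.87 and 14.1, for JAZ10 they were 7.23, 5.86 and 11.1, and for JAZ8 they were 2.47, 0.958 and 5.21. In these genes replicate 2 gave the smallest ratio. In Cvi the same ratios were 87.3, 107 and 76.5 for JAZ1, 103.0, 121 and 102 for JAZ5, and 31.9, 39.7 and 33.0 for JAZ8, although same-numbered Cvi libraries did not deviate together.

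**Figure D4:**
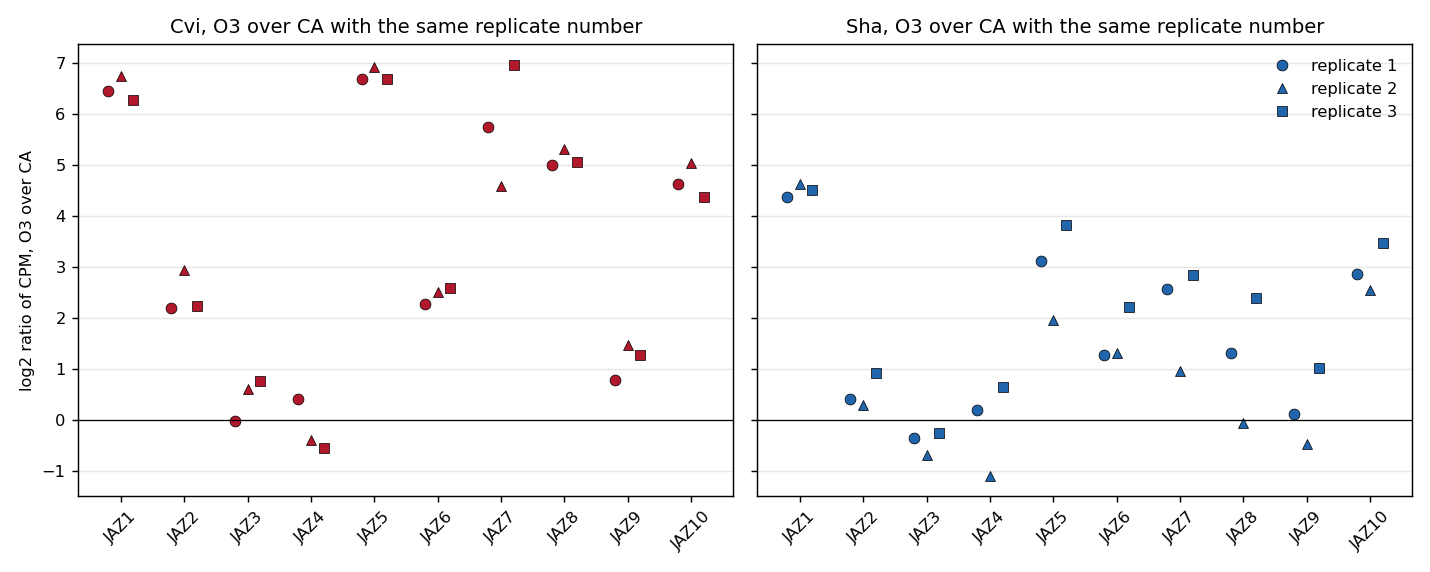
Log2 ratio of CPM in O3 over CA between libraries with the same replicate number, for Cvi (left) and Sha (right). Symbols mark replicates 1 to 3. The 3 Sha ratios of JAZ1 lie close together, while those of JAZ5, JAZ8 and JAZ9 are lowest in replicate 2.

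Sister genes can be set side by side for their sequence and their response. JAZ1 and JAZ2 aligned with 72.6% identity over 690 bases of transcript, JAZ5 and JAZ6 with 71.8% over 425 bases, JAZ7 and JAZ8 with 73.0% over 382 bases, and JAZ3 and JAZ4 with 67.4% over 678 bases. JAZ10 had no alignment to another member. In Cvi the folds were 88.9 for JAZ1 and 5.53 for JAZ2, 109 for JAZ5 and 5.51 for JAZ6. JAZ7 and JAZ8 had log2 changes of 5.34 and 5.11. JAZ3 and JAZ4 had 0.43 and -0.15. The differences in fold between genes were not tested.

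The rest of the jasmonate pathway was described with lists chosen by function, counting called genes in O3 against CA. Over all genes, 24.3% were called higher and 23.2% lower in Cvi, and 17.9% and 16.6% in Sha. Of 6 other TIFY proteins, relatives of the JAZ family, 2 rose and 3 fell in Cvi, and 0 rose and 2 fell in Sha. JAZ13, a short atypical JAZ protein, had 25.6, 41.9 and 26.5 CPM in Cvi in O3, against 1.35, 1.16 and 1.31 CPM in Cvi in CA, a log2 change of 4.61 (SE 0.445, edgeR adjusted p = 2.15e-18). In Sha it had at most 1.17 CPM in any library, with a log2 change of 0.48 (SE 0.592, adjusted p = 0.600). The difference of 4.13 (SE 0.740, adjusted p = 4.27e-06) was larger than that of any of JAZ1 to JAZ10. TIFY8 fell by 2.02 in Cvi and by 2.29 in Sha on the log2 scale. JAZ13 and TIFY8 overlap a gene on the opposite strand, so both values are uncertain.

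Transcripts of the receptor, corepressors and transcription factors around the JAZ proteins were counted next. Shares of all genes beside them were 24.3% called higher and 23.2% lower in Cvi, and 17.9% and 16.6% in Sha. Among COI1, NINJA, TOPLESS and MED25, 2 rose in Cvi and 1 in Sha. MED25, a Mediator subunit that MYC2 recruits, rose by 1.46 (SE 0.141) in Cvi and 0.73 (SE 0.146) in Sha on the log2 scale. COI1 had log2 changes of 0.27 (SE 0.188, adjusted p = 0.377) in Cvi and 0.41 (SE 0.189, adjusted p = 0.196) in Sha, and NINJA had -0.36 (SE 0.140, adjusted p = 0.156) and 0.13 (SE 0.141, adjusted p = 0.777). Of 4 MYC activators, 2 rose and 2 fell in Cvi, and 1 rose and 2 fell in Sha. MYC2 had 245, 194 and 232 CPM in Cvi in O3, against 64.6, 59.9 and 63.7 CPM in Cvi in CA, and rose by 1.83 (SE 0.260, adjusted p = 1.27e-09) on the log2 scale. In Sha it had 88.3, 47.9 and 87.5 CPM in O3, against 70.5, 37.6 and 60.2 CPM in CA, a log2 change of 0.41 (SE 0.261, adjusted p = 0.315). The responses of MYC2 differed by 1.42 (SE 0.369, adjusted p = 0.00650). COI1 and MYC2 are uncertain for the same reason of an opposite-strand gene. MYC3 rose by 1.10 in Cvi and 0.69 in Sha, MYC4 fell by 2.86 and 2.29, and MYC5 fell by 2.33 and 4.36. Of the 3 JAM factors, which compete with MYC2 for its sites, 2 rose in each accession, JAM1 by 2.83 in Cvi and 1.11 in Sha.

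Genes that make and remove the hormone are set here beside all genes. In Cvi 24.3% of all genes were called higher and 23.2% lower, and in Sha 17.9% and 16.6%. Of 11 genes of JA-Ile formation and breakdown, 8 rose and 1 fell in Cvi, and 6 rose and 0 fell in Sha. JOX4, a jasmonate hydroxylase, had 109, 217 and 124 CPM in Cvi in O3, against 0.0314, 0.0387 and 0.261 CPM in Cvi in CA. ILL6, an amidohydrolase that cleaves JA-Ile, rose by 4.42 in Cvi and 3.16 in Sha on the log2 scale, and JAR1, the enzyme that forms JA-Ile, fell by 0.74 in Cvi (adjusted p = 0.0197). Of 12 biosynthesis genes, 8 rose and 2 fell in Cvi, and 7 rose and 1 fell in Sha. AOC3, an allene oxide cyclase, had the largest rise in both, 8.05 (SE 0.313) in Cvi and 5.72 (SE 0.324) in Sha, and the lipoxygenase gene LOX2 had the largest fall, 2.41 in Cvi and 1.13 in Sha. The Sha groups of LOX2 overlapped, with 110 to 610 CPM in O3 and 566 to 947 CPM in CA.

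Outputs of the 2 branches of the response moved unevenly. Of 6 MYC-branch outputs, 3 rose and 1 fell in each accession. The shares of all genes were 24.3% called higher and 23.2% lower in Cvi, and 17.9% and 16.6% in Sha. TAT3, a tyrosine aminotransferase, rose by 7.31 (SE 0.582) in Cvi and 3.28 (SE 0.579) in Sha, while CORI3, a cystine lyase, fell by 2.06 and 0.94. ANAC055, a NAC transcription factor, had 6.21, 12.4 and 13.8 CPM in Cvi in O3, against 0.125, 0.0387 and 0.174 CPM in Cvi in CA, and 19.0, 3.32 and 23.3 CPM in Sha in O3, against 1.54, 0.654 and 1.13 CPM in Sha in CA. Of 6 ERF-branch genes, 4 rose in Cvi and 3 in Sha. ERF1, an ethylene and jasmonate response factor, rose by 4.94 (SE 0.478) in Cvi and 5.03 (SE 0.496) in Sha, with only 1 to 8 counts per library in CA, and its responses differed by -0.09 (95% interval -1.44 to 1.26).

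**Figure D5:**
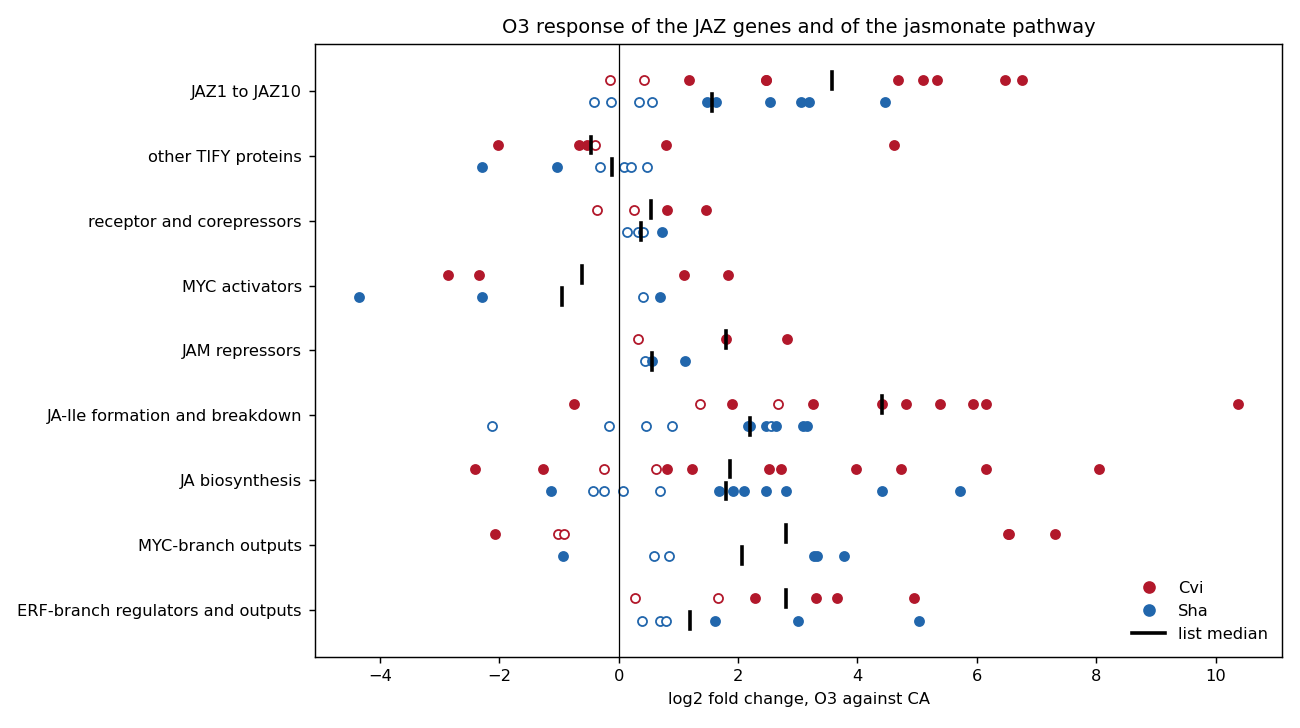
Log2 fold change in O3 against CA of JAZ1 to JAZ10 and of 8 lists of jasmonate pathway genes, in Cvi (red) and Sha (blue). Each point is a gene, filled where called, and black bars are list medians. The median of the 10 JAZ genes is 3.57 in Cvi and 1.56 in Sha. The point at the far right is JOX4, whose fitted value rests on 1 to 6 counts per library in Cvi in CA.

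Genes with profiles most like the family were sought among 19098 genes averaging 1 CPM or more. The measure was Pearson r over the 12 libraries between log2(CPM + 0.5) of a gene and the mean of the standardised profiles of the 10 JAZ genes. It is given as a description, since all points share treatment, accession and library. The 5 highest were AT3G53600 (0.993), annotated as a C2H2-type zinc finger protein, PP2-B6 (AT2G02310, 0.991), a phloem protein 2 gene, AT1G80450 (0.989), a VQ motif protein, C4H (AT2G30490, 0.989), cinnamate 4-hydroxylase of phenylpropanoid synthesis, and AT3G51450 (0.988), annotated as a phosphotriesterase family protein. C4H averaged 843 CPM in Cvi in O3 and 113 CPM in Cvi in CA, and 281 CPM in Sha in O3 and 123 CPM in Sha in CA. PP2-B6 was listed at 0 in Cvi in CA and averaged 40.8 CPM in Cvi in O3. Among the JAZ genes themselves, r with the mean profile was highest for JAZ8 (0.990) and lowest for JAZ3 (0.555), and JAZ4 had a mean under 1 CPM and was left out. Each JAZ gene is part of that mean profile, which raises its r, so these values cannot be set beside those of other genes.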

How the data were processed

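RNA-seq libraries of 12 rosette samples in 4 groups of 3 were analysed. According to the methods, the authors trimmed reads with Trimmomatic 0.33 and assigned them to the AtRTD2 transcript set of Col-0 with kallisto. The deposited values are estimated counts per locus, averaged by the authors over repeated kallisto estimates and not normalised. Of these values 69.46% were not whole, and all were rounded here. The table has 6 further columns of samples outside this set, which were left out. The kit was stranded, but how transcripts were summed to loci is not given in the sources used here.

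Loci without a count (5663) were removed, which left 28549. edgeR 4.0.16 (R 4.3.3) was used with TMM scaling, 1 mean per group over the 12 libraries and glmTreat on the likelihood-ratio fit with a minimum fold of 1.2. The study states a limit of a log2 fold change of 1.2 and tests with glmLRT, which reads as a cutoff on the fitted value. The alternative run here was instead a glmTreat test against a minimum log2 fold change of 1.2. Such a test is stricter than a cutoff at that value, so it does not repeat the limit of the study. This alternative calls 3773 genes higher in O3 in Cvi, against 6948 with the minimum used here, and 2075 in Sha, against 5105. A Benjamini-Hochberg adjusted p of at most 0.05 was called, and scripts were tested on simulated data. Libraries differed by more than counting noise within groups (chi-square per degree of freedom 14.3 to 77.1), and the methods of the study name the replicates as biological. Same-numbered libraries of Sha correlated in their deviations from group means (r = 0.44, 0.62 and 0.44), as did those of Cvi and Sha in CA (0.31, 0.46 and 0.26). Those of Cvi in O3 and CA did not (0.13, -0.11 and -0.06), nor did those of Cvi and Sha in O3 (0.03, -0.17 and -0.00225). No batch is named in the labels.

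Symbols and coordinates are from the RefSeq annotation of TAIR10.1 (33437 loci matched). Transcripts were aligned with blastn 2.17.0. The upstream window of JAZ1 is not reported here. Members and lists were chosen with earlier results of these data known. Named genes are the 10 members, the gene with the largest called rise and fall of each list in each accession (mean of at least 1 CPM), COI1, NINJA, MYC2 and the 5 genes most like the members. Alternatives were the quasi-likelihood test, DESeq2 1.42.0, other fold minimums, RLE size factors, filterByExpr, fits of 2 groups, replicate blocks, thinned counts and libraries left out.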

Additional observations from a re-analysis of the deposited data

Results flagged for a closer look

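The response to O3 was larger in Cvi than in Sha for 5 JAZ genes by the interaction term of the edgeR fit, which compares the responses themselves. The difference in log2 response (Cvi minus Sha) was 2.01 for JAZ1, 1.91 for JAZ2, 3.58 for JAZ5, 3.62 for JAZ8 and 1.63 for JAZ10. When the test was run against a minimum log2 fold change of 1.2, only JAZ5 and JAZ8 were called. In JAZ8 one Sha ratio of O3 over CA between same-numbered libraries was 0.958, that is, replicate 2 of Sha did not have a higher level in O3, while the others were 2.47 and 5.21. Groups of 3 libraries are too small for a test of single outlying samples.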

How the results depend on the processing

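The counts of called members in the response of Cvi (8) and in Cvi against Sha in O3 (6) stayed within 1.5 times under every alternative run, with 5 to 7 in O3 when a library was left out. When the test was run against a minimum log2 fold change of 1.2, 3 genes were called in Sha and 2 for the difference. Over all genes, it called 2075 higher in O3 in Sha and 464 positive differences. This test is stricter than a cutoff of the fitted value at 1.2, which is how the limit of the study reads. A replicate block for each accession gave 8 for the difference, and a replicate block shared by all groups gave 8, 6, 5, 6 and 0 in the order of the 5 comparisons in the report, the same as without it. In CA, where 0 were called, 1 was called without a minimum fold change and with filterByExpr, 3 with only the 2 groups in the fit and 3 without Sha replicate 2 in both treatments, all lower in Cvi. Leaving out 1 library gave 0 to 3 there.

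Directions changed only for genes without a call. JAZ4 had 0.29 in Cvi and 0.083 in Sha with thinned counts, 0.54 in Sha without Sha replicate 2 in both treatments, and -0.48 to 0.39 in Sha with 1 library left out. Its difference was 0.0025 with the quasi-likelihood test, 0.075 with DESeq2, 0.043 with RLE size factors, 0.21 with thinned counts and -0.54 to 0.37 with 1 library left out. In CA, JAZ4 had -0.080 with thinned counts and -0.17 to 0.80 with 1 library left out, JAZ1 had -0.044 without Sha replicate 2 in both treatments and -0.034 to 0.53 with 1 library left out, and JAZ3 had -0.23 to 0.045. Over single genes, 1042 values kept direction and call, 39 gained a call, 20 lost one and 19 changed direction. Depth limited JAZ4 (7 to 25 counts per library) and JAZ7 in Cvi in CA (1 to 6 counts).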

Other observations

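The difference between the accessions was called for genes of 7 of the 8 jasmonate pathway lists. By the interaction term of the edgeR fit, a positive difference (Cvi minus Sha) was called for 6.33% of all genes. It was called for 5 of 12 biosynthesis genes (LOX3, LOX4, AOC3, OPR3 and OPCL1), 5 of 11 genes of JA-Ile formation and breakdown (IAR3, CYP94C1, JOX2, JOX3 and JOX4), 2 of 3 JAM factors (JAM1 and JAM2) and 3 of 6 MYC-branch outputs (ANAC019, ANAC055 and TAT3). The quasi-likelihood test called 4 of the biosynthesis genes and 2 of the MYC-branch outputs, and DESeq2 called 5 and 2. Of 4 MYC activators MYC2 and MYC5 were called, and MYC5 fell less in Cvi. A larger response did not mean a higher level in O3 for JOX3 and ANAC055. JOX3 averaged 9.40 CPM in Cvi and 12.2 CPM in Sha in O3, and 0.127 and 6.58 CPM in CA. ANAC055 averaged 10.8 CPM in Cvi and 15.2 CPM in Sha in O3, and 0.113 and 1.11 CPM in CA. The Cvi CA libraries had only 0.0387 to 0.218 CPM of JOX3 and 0.0387 to 0.174 CPM of ANAC055, so both Cvi responses rest on low values. Of 6 ERF-branch genes 0 were called with edgeR, with the quasi-likelihood test or with DESeq2, and 1 had an unadjusted p under 0.05. A missing call does not show that the ERF-branch responses were alike. The genes listed here were named after their values were seen, by the call alone.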
